A study of Drosophila melanogaster with 2 samples.

Results

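The Wingless pathway genes described here are wg, fz, arr, dsh, Axn, sgg, gish, arm, pan and nkd, which are 10 of the 13945 protein-coding genes annotated on the main chromosomes of Drosophila melanogaster. They were chosen by name, with the peak lists used below already known, so the counts of peaks at them are given as descriptions and carry no test. The values that chose them were the peaks themselves, in which the promoters of gish and nkd already stood out. All 10 symbols matched the annotation, and no gene was left out for low values.

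The data are chromatin immunoprecipitation and sequencing (ChIP-seq) peaks of shuttle craft (stc), a zinc finger protein of the NF-X1 family. Flies carried an stc-eGFP insertion, whole embryos were collected between 0 and 24 h of age, and the chromatin, sonicated to 200 to 800 bp, was pulled down through the GFP tag. There was 1 group with 2 biological replicates, no second genotype or treatment, and no control library was analysed here. Whole embryos of all these ages mix every tissue, so a peak cannot be placed in a cell type, and peak lists hold no expression values with which the labelled material could be checked against markers. A peak is a stretch of DNA in which the authors' caller found more reads than its background. Its summit is the position of highest excess, and its signal is the authors' own value for it, used here only to describe and rank peaks. The conservative list, made from both replicates, held 3831 peaks and is the list meant unless another is named. The authors' larger list held 5084 peaks, the list of replicate 1 held 2782 and that of replicate 2 held 3806. The read depth of the libraries is unknown.

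Wingless is the founding Wnt ligand of the fly. In its absence a destruction complex built on Axin, with the kinase Shaggy, marks Armadillo, the fly beta-catenin, for degradation. When Wingless engages Frizzled and Arrow at the cell surface, Dishevelled is recruited, the complex is inhibited, and Armadillo accumulates and enters the nucleus, where it works with Pangolin, the fly TCF, on target genes. In the embryo the pathway is best known for patterning the segments and the cuticle, and naked cuticle (nkd) is a target that feeds back to restrain it.

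In the gene body and 5 kb on either side, 6 of the 10 genes had a summit in the conservative list (fz, arr, dsh, sgg, gish and nkd), against 38.8% of all protein-coding genes. No summit of that list lay near wg, Axn, arm or pan. A summit at most 250 bp away from a start site (TSS) of the gene's own transcripts, called an own promoter summit here, was found at 4 of the 10 (gish, sgg, nkd and fz), against 10.2% of all protein-coding genes. Genes with more TSSs have more places for such a summit, and gish has 4 TSSs and sgg 11. These shares were not adjusted for the number of TSSs. In all there were 22 summits: 7 at fz, 7 at arr, 4 at nkd, 2 at gish and 1 each at sgg and dsh. The strongest lay at the kinases gish and sgg, at the feedback inhibitor nkd and upstream of the transducer dsh.

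The reference sequences under the leading summits are shown because they let the base composition described further on be read directly. Each line gives the 101 bases centred on a summit, 5′ to 3′ in the direction of the named gene, and capitals mark runs of 6 or more A or T. The gish promoter summit is chr3R:16280675-16280775 on the plus strand, sgg is chrX:2646398-2646498 plus, nkd is chr3L:19045572-19045672 minus and the dsh upstream summit is chrX:11351469-11351569 plus (all dm6). The strongest fz summit, in its first intron, is chr3L:14304012-14304112 plus, and the weaker fz promoter summit is chr3L:14274160-14274260 plus. The last line, chr3R:16280375-16280475 plus, is a stretch of the same length centred 300 bp upstream of the gish summit, for contrast. No stretch overlaps an annotated exon.
gish promoter: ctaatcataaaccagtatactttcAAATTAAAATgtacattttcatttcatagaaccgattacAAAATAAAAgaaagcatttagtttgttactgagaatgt
sgg promoter: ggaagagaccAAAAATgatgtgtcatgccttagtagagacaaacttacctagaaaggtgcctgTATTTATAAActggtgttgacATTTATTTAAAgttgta
nkd promoter: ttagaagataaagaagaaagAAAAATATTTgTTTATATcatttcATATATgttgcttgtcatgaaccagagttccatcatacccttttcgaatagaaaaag
dsh upstream: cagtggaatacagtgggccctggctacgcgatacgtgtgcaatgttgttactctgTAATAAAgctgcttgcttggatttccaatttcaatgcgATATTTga
fz first intron: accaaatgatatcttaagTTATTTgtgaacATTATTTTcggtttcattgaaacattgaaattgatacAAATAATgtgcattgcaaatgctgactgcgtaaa
fz promoter: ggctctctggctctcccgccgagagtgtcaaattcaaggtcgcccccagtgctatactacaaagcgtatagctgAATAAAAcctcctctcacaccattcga
gish 300 bp upstream: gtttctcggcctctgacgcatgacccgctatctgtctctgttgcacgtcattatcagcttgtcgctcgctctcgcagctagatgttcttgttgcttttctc

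**Figure D1:**
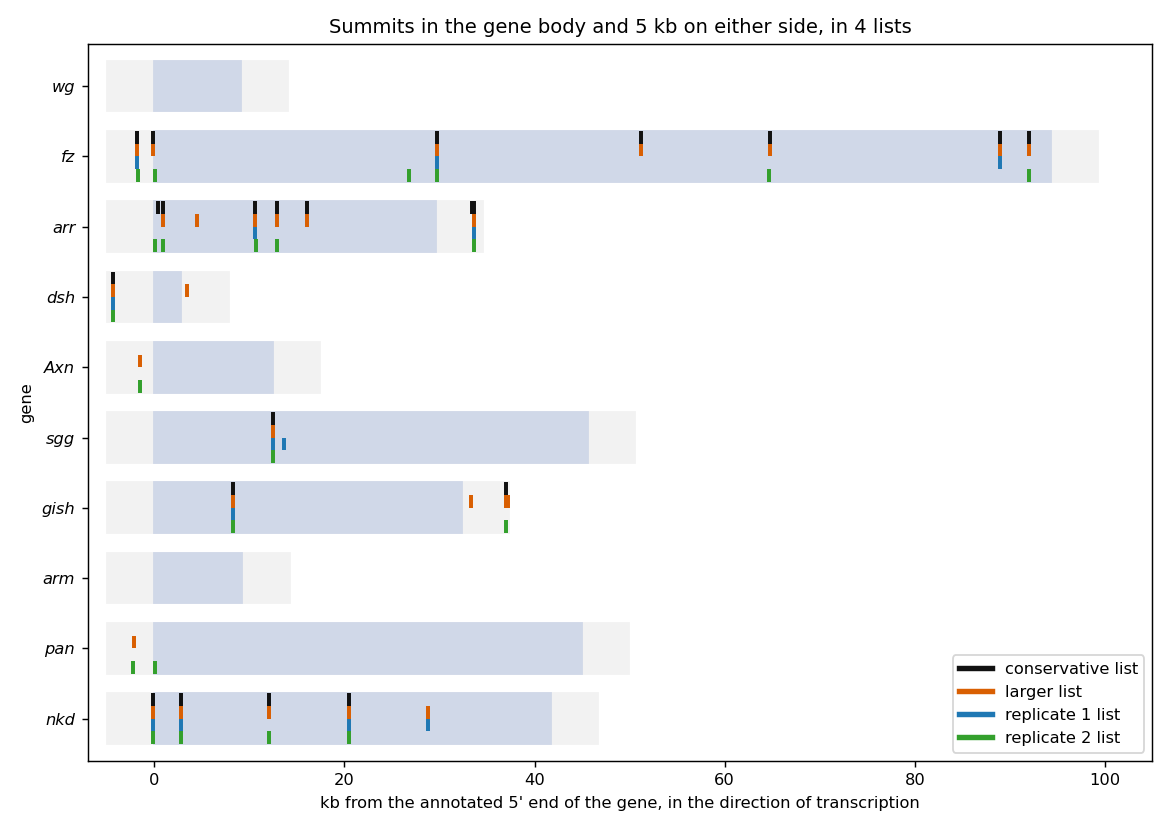
Each bar is a gene (dark, gene body; light, 5 kb on either side), drawn in kb from its annotated 5′ end in the direction of transcription, and ticks mark summits in the 4 thresholded lists. The 22 conservative summits (black) fall on 6 of the 10 genes, with 7 each at fz and arr, and the bars of wg and arm carry no tick of any list.

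The ligand gene wg (2L:7307159-7316265, plus strand) had no summit in its window in any of the 4 thresholded lists. The ranked list of the series used here includes peaks below the threshold. Its best peak in the wg window had a signal of 66.6 and ranked 5675 of 109045. That peak lay in the third intron with an irreproducible discovery rate (IDR) of 0.0846. The IDR measures how well a peak's rank holds between a pair of lists, and all conservative peaks had 0.01 or less. The best wg peak of replicate 1 was in the same intron (signal 40.1, rank 3576), whereas that of replicate 2 lay 5 bp upstream of the wg TSS (signal 35.1, rank 8188). The replicates thus placed their best wg peaks at different sites, both below the threshold. The nearest conservative summit lay 10.918 kb from the gene body, with a signal of 22.0.

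Of the receptors, fz (3L:14274343-14368639, plus strand) spans 94.297 kb from a single TSS and had 7 summits. The strongest was in the first intron, 29719 bp downstream of the TSS, with a signal of 271.0 in the conservative list. That site gave 97.8 in replicate 1 and 168.5 in replicate 2 and was in both replicates' own lists. A second site, 1777 bp upstream, also occurred in both lists, with a conservative signal of 117.9 and replicate values of 68.6 and 49.0. Both of these sites were therefore kept in each replicate alone, though they differed in which replicate was higher. The own promoter summit, 133 bp upstream of the TSS, was weak at 76.0, rank 3470, and was absent from the list of replicate 1. The ranked peaks matched to it had signals of 42.9 and 64.7, and their summits lay 107 bp farther upstream in replicate 1 and 154 bp farther downstream in replicate 2. No other of the 21 summits with both matches had shifts of that size. The remaining 4 fz summits all lay in the fourth intron, 51159, 64716, 88969 and 92018 bp from the TSS, with conservative signals of 96.0, 83.6, 92.1 and 102.4. None of these 4 was in both replicates' own lists. Just outside the IDR threshold fz had further ranked peaks, the nearest in its first intron at 14297506-14297855 with an IDR of 0.0127 and a signal of 81.5.

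The co-receptor gene arr (2R:13453640-13483229, minus strand), a low-density lipoprotein receptor-related protein, also had 7 summits, in a window of 39.59 kb. The strongest within the gene was in the second intron, 10604 bp from the TSS, with a signal of 159.2 and replicate values of 86.3 and 81.9. It was in both replicates' own lists. A summit of 159.4 lay in the window but at the promoter of cnn, which encodes the centrosome protein centrosomin, and a second of 76.7 lay inside cnn. The peaks of these 2 summits overlap each other. Both lie nearer to cnn than to arr, and the lists do not tell which gene they concern. The other second-intron summits, 16102 and 12889 bp from the arr TSS, had signals of 74.4 and 98.5. In the first intron there were summits 923 bp and 404 bp from the TSS, with signals of 107.9 and 13.3. The value of 13.3 was the lowest of all 22, below the 40.5 of the matching peak in replicate 1 (rank 3513), and no ranked peak of replicate 2 overlapped the site by 50% of the shorter peak. How the authors' processing set the value of 13.3 was not tested. Replicate 2 instead had its own peak 82 bp downstream of the arr TSS, with a signal of 59.5, so arr had an own promoter summit in that replicate alone. The 2 arr summits nearest to the threshold had an IDR of 0.00906 and 0.00849. The summits of 76.7 and 13.3 were absent from the larger list and from each replicate's own list.

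The transducer gene dsh (X:11355881-11358724, plus strand) is the shortest of the genes, at 2.844 kb. Its 1 summit, with a signal of 369.8 at rank 310, lay 4362 bp upstream of its TSS in an intron of CG1737. Replicate 1 gave 187.7 and replicate 2 gave 187.0, and the site was in both own lists. The replicates' signals were closer here than at the other 20 summits matched in both, and the distance puts the site near the edge of the 5 kb window. The larger list added a summit 80 bp from the TSS of Pa1, downstream of dsh, with a signal of 73.2.

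In the destruction complex, the scaffold gene Axn (3R:30022842-30035311, plus strand) had no conservative summit and the kinase gene sgg had 1. For Axn the larger list and replicate 2 each held a summit about as far upstream, 1547 and 1541 bp, inside Mgat2, an N-acetylglucosaminyltransferase gene. Its signal was 65.1 in the larger list and 41.7 in replicate 2, while the best ranked peak of replicate 1 there had 24.1 and an IDR of 0.837. The nearest conservative summit lay 8.014 kb from the Axn body. The sgg gene (X:2633952-2679553, plus strand), which encodes the fly glycogen synthase kinase, has 11 annotated TSSs, and its summit lay 189 bp upstream of 1 of them, a site of 1 of its 19 transcripts, 12.685 kb inside the gene. The signal was 433.8, rank 214, with 181.1 in replicate 1 and 240.8 in replicate 2, both in their own lists. Replicate 1 alone had another sgg summit, 904 bp downstream of that TSS, at 38.8.

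The gish gene (3R:16272452-16304768, plus strand) encodes a casein kinase I of the gamma class, the family that phosphorylates Arrow-type co-receptors. Its promoter summit was the strongest at any of the 10 genes, with a signal of 1045.5 and rank 23 of 3831. It lay 164 bp upstream of a TSS shared by 5 of its 16 transcripts, 8.437 kb inside the gene. Replicate 1 gave 492.8 at rank 30 and replicate 2 gave 563.1 at rank 24, so the site stood near the top of either list. Like the sgg summit it marked an internal start, and no summit lay within 250 bp of the farthest 5′ TSS of either gene. The other gish summit, at 97.2, lay 4.676 kb past the gene body, between Zip89B and Sulf1, and was in the own list of replicate 2 but not of replicate 1. The larger list added summits of 81.0, at the TSS of the zinc transporter gene Zip89B 16 bp away, and of 6.88.

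Armadillo and Pangolin, the nuclear effectors, had no conservative summit. The arm gene (X:1891401-1900646, minus strand) had none in any thresholded list, and its best series peak, signal 68.0 and IDR 0.0359, lay at the promoters of mRpL16 and trr. The best arm peak of replicate 1, at 34.9, was in the second intron, and that of replicate 2, at 38.2, lay at Ldaf1. The pan gene (4:69326-114270, plus strand) lies on chromosome 4. Its window held no peak of replicate 1's ranked list or of the series' ranked list used here. Replicate 2 had 11 ranked peaks there. Chromosome 4 held few ranked peaks altogether, with 18.3 per 100 kb in the series list against 80.8 on all main chromosomes, 16.0 against 77.1 in replicate 1 and 36.1 against 70.1 in replicate 2. In the conservative list chromosome 4 held 0.445 peaks per 100 kb, against 2.86 on all main chromosomes. The nearest conservative summit lay 310.571 kb from the pan body. Whether the empty pan window reflects that chromosome or pan itself was not tested. In replicate 2, a peak of 76.5 lay at the TSS of RpS3A, a ribosomal protein gene, and a peak of 38.9 lay 100 bp downstream of a pan TSS. The larger list held a summit of 98.1, 16 bp from the RpS3A TSS.

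The feedback inhibitor gene nkd (3L:19003741-19045449, minus strand), whose product binds Dishevelled, had an own promoter summit and 3 first-intron summits. The promoter summit lay 173 bp upstream of the TSS, which serves all 3 transcripts, with a signal of 420.1 and rank 231. It had 172.0 in replicate 1 and 247.5 in replicate 2 and was in both lists. The first-intron summits lay 2787, 12085 and 20449 bp downstream, with conservative signals of 196.5, 99.2 and 199.8. The first had 71.5 and 129.7 in replicates 1 and 2, and the last had 104.5 and 91.6, and both were in each replicate's own list. The summit at 12085 bp, also in an exon of lncRNA:CR45940, had 36.7 and 60.0 and was in the list of replicate 2 alone. With 3 of its 4 summits in both own lists, nkd had more such sites than any other of the 10 genes.

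**Figure D2:**
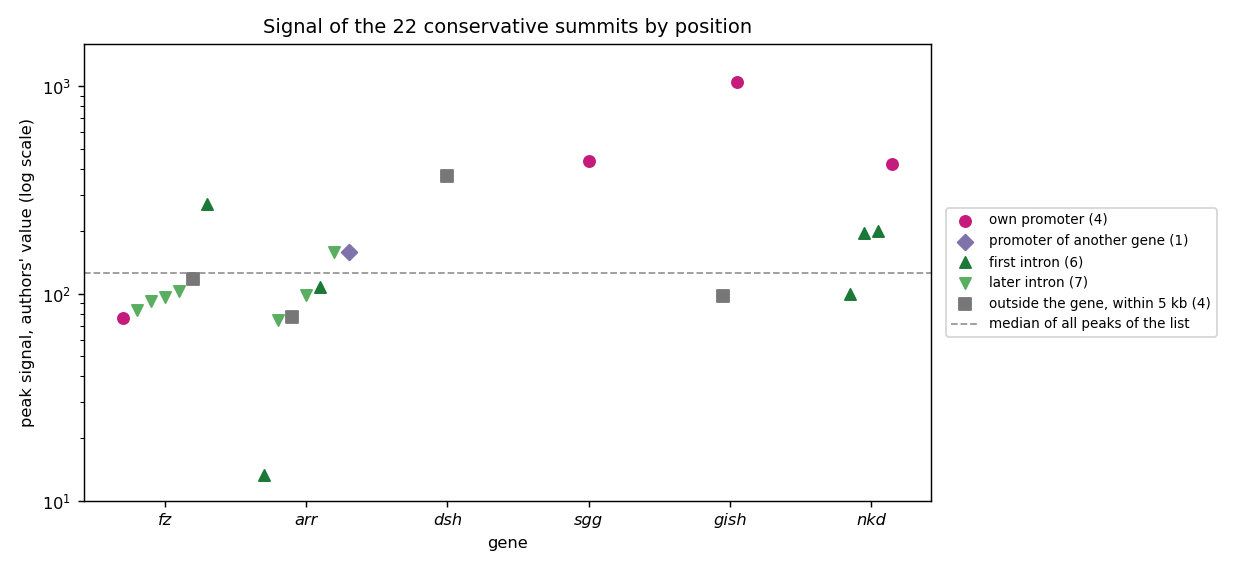
Signal of each conservative summit on a log axis, grouped by gene and marked by position, with the median of the whole list as a dashed line. The gish, sgg and nkd promoter summits and the dsh upstream summit stand above the rest, while the fz promoter summit (76.0) and most intron summits lie below the list median of 126.2.

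Placed against the 10 genes themselves, 13 of the 22 summits (59.1%) lay in introns, 6 of them in first introns, and none in an exon. All 13 were in fz, arr and nkd. Placed in the same way, the intron share was 53.8% in the list of replicate 1, 45.5% in that of replicate 2 and 51.9% in the larger list. For the whole list a summit could be placed in any gene, and by that rule 14 of the 22 (63.6%) lay in introns, against 45.1% of all 3831 summits, 5 (22.7%) at promoters, against 33.1%, and 1 in an exon, against 4.49%. The rules differ at 3 sites: the dsh summit lay in an intron of CG1737, an arr summit in an intron of cnn, and the nkd summit at 12085 bp in the exon of a non-coding gene. The 4 own promoter summits had a median signal of 426.9 (76.0 to 1045.5), the 13 intron summits one of 99.2 (13.3 to 271.0), and the 4 outside the genes and away from other promoters one of 107.5 (76.7 to 369.8). Over the whole list promoter summits had a median of 139.5 and the others of 120.9. The gish and nkd promoters already stood out when the genes were chosen, so the median of the own promoter summits is a description only. The median of the 22 was 105.2, below the 126.2 of the list, and 4 of them, at gish, sgg, nkd and dsh, were among its first 383 peaks by rank. Among 1190 promoter peaks at protein-coding genes, gish ranked 18, between CG8320 (1063) and the pseudouridine synthase-like gene RluA-1 (1035). The sgg peak ranked 114, between the chaperone gene Hsp83 (436.2) and TBC1d7 (433.4), nkd ranked 123, between CG1827 (422.5) and the tubulin cofactor gene Tbcd (419.7), and fz ranked 1079, between Itpr and Dsp1. The TBC1d7 peak is also the strongest in the stretch searched at Apc2, a gene of the destruction complex. The functions of the neighbours in this order were not compared.

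The width of a peak went with its signal. In the conservative list 73.4% of peaks had the same width of 350 bp, with a median signal of 107.7, and the others had a median of 287.1. Among the 22, 16 were 350 bp wide and 6 had another width, namely the gish, sgg and nkd promoter peaks, the dsh peak, the strongest fz intron peak and the nkd peak 20449 bp into the gene. The 88 bp of that nkd peak was the narrowest of them and the 293 bp of the gish promoter peak the widest.

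**Figure D3:**
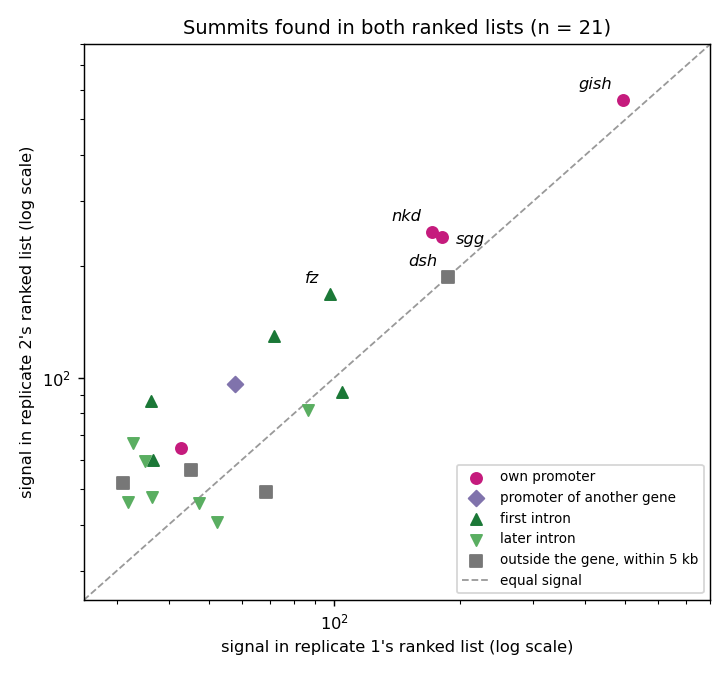
Signal in the ranked list of replicate 1 (x) and of replicate 2 (y) for the 21 conservative summits with a matching peak in both, on log axes, with the line of equal signal dashed. The points of 15 summits lie above the line, and gish, nkd, sgg and dsh are at the upper right in both replicates.

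The strong sites were in the lists of both replicates and the weak ones were not. Of the 22 summits, 10 lay in peaks of both own lists, where shared means an overlap of at least 50% of the shorter peak. Replicate 2 had 7 of the others, replicate 1 had 1, and 4 were missing from the own list of each. The 10 in both had conservative signals of 117.9 or more, and the other 12 had 107.9 or less. The conservative list was itself made from both replicates, so this split is not an independent check of the sites. A ranked peak was present in both replicates for 21 summits, with a median ratio of replicate 2 to replicate 1 of 1.44 (0.714 to 2.38), against 1.16 over 3614 peaks of the whole list. The highest ratio was at the arr summit 923 bp from its TSS (36.4 and 86.6) and the lowest at the fz summit 1777 bp upstream. Replicate 2 had the longer thresholded list, of 3806 peaks against 2782. The ranked list, from which the ratios come, was longer in replicate 1, with 104070 peaks against 94143. In the list of replicate 1, 6 of the 10 genes had a summit, 13 summits in all, against 32.8% of all protein-coding genes, and 3 had an own promoter summit, against 8.18%. In that of replicate 2, 8 had a summit, 22 in all, against 39% of protein-coding genes, and 6 had an own promoter summit, against 10.8%, with arr and pan as the additions. In the larger list 8 had a summit, 27 in all, against 46.3%, and 4 had an own promoter summit, against 13.4%. The own promoter summits of gish, sgg and nkd were present in every one of the 4 lists.

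**Figure D4:**
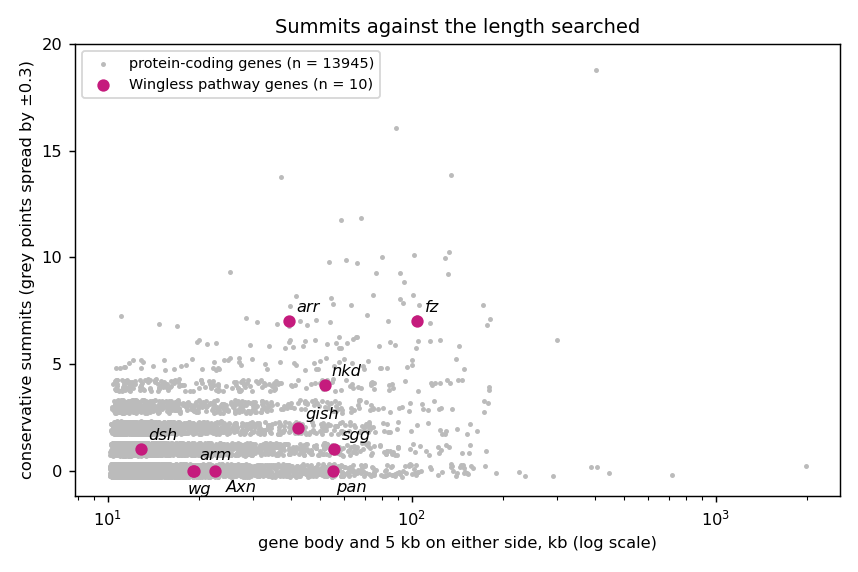
Conservative summits in the gene body and 5 kb on either side against the length of that stretch on a log axis, for all 13945 protein-coding genes (grey, spread vertically by up to 0.3 for visibility) and the 10 Wingless pathway genes (coloured). The genes arr and fz have 7 summits each in stretches of very different length, and pan has none in 54.945 kb.

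Long genes had more room for summits, and most of the 10 are long. The median stretch searched was 12.2 kb for a protein-coding gene, and of the 10 only dsh, at 12.844 kb, was near it. Over the 422.1 kb searched there were 5.21 summits per 100 kb, against 3.24 over the merged stretches of all protein-coding genes, a ratio of 1.61. The ratio was 1.49 in the larger list, 1.32 in replicate 1 and 1.61 in replicate 2. By gene the density was 17.7 per 100 kb at arr, 7.79 at dsh, 7.74 at nkd, 6.71 at fz, 4.73 at gish and 1.80 at sgg. Of 673 genes with a stretch as long as that of arr or longer, 40 had 7 or more summits, and of 95 as long as fz, 12 had. Of 428 as long as nkd, 102 had 4 or more. The 7 at arr include the 2 overlapping peaks at or inside cnn. They also depend on the list, with 6 arr summits in the larger list, 5 in replicate 2 and 2 in replicate 1. The arr density in these lists was 15.2, 12.6 and 5.05 per 100 kb. For fz the same lists held 7, 6 and 3 summits. All genes of such lengths were counted in the conservative list alone. The counts at the other genes with summits were common for their length: 274 of 612 genes as long as gish had 2 or more, 247 of 366 as long as sgg had 1 or more, and so had 2696 of 5570 as long as dsh. For the genes without summits, 124 of 378 genes with a stretch as long as that of pan had none, as had 882 of 2103 for wg, 872 of 2075 for arm and 651 of 1610 for Axn, so an empty window is common at these lengths. For pan, length alone leaves out the low density of peaks on chromosome 4.

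Most of the summits lay in short stretches with more A and T than the flanks on either side. The gish promoter, printed above, was a wide case, at 23.3 points above its flanks. The dsh upstream summit, at 56.4%, was below the genome. Within 50 bp of the 22 summits the median A and T content was 69.3% (48.5 to 81.2), against 55.2% in stretches of the same length centred 300 bp away on both sides. The content was higher at the summit than in its flanks for 17 of 22, with a median difference of 12.4 percentage points. That difference was 7.43 points at the summits of replicate 2's list alone, 17.3 at those of replicate 1's list alone and 7.92 with flanks centred 500 bp away. Over all 3831 summits the values were 68.3% and 56.4%, 76.4% of summits were higher than their flanks, and the median difference was 11.9 points. The genome held 57.8%. The nkd summit 2787 bp into the gene and the arr summit inside cnn had the highest content, 81.2%. The gish promoter summit had 75.2% and the stretch 300 bp upstream of it 48.5%, with no run of 6 A or T. The fz promoter summit went the other way, with 48.5% at the summit and 62.4% in its flanks.

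**Figure D5:**
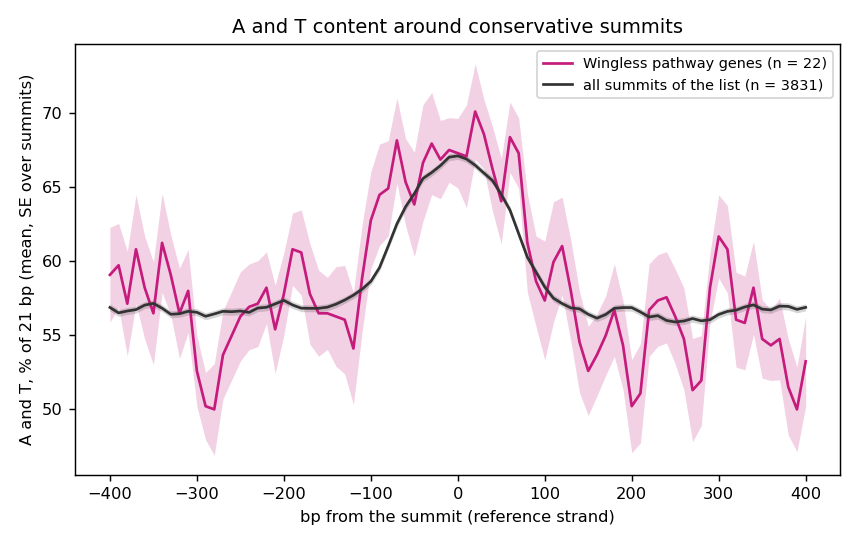
Mean A and T content in overlapping 21 bp windows, placed every 10 bp from 400 bp before to 400 bp after the summit, on the reference strand, for the 22 summits at the Wingless pathway genes and for all 3831, with bands of 1 standard error over summits. Both curves rise at the summit, to 67.3% and 67.1%, and the curve of the 22 varies more from window to window.

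Short words of known factors were searched within 50 bp of each summit on both strands. GAGAG, read by GAGA factor, was in 4 of the 22, namely 2 arr summits, the fz promoter summit and the gish summit past the gene, against 10.3% of all summits and 15.7% of their flanks. None of the strong gish, sgg, nkd and dsh summits held it. CTTTGAT, a core of the TCF site, was in none of the 22 and in 1.70% of all summits, and GCCGCC, a core of the TCF helper site, was in none and in 2.40%. None of the 22 held any of the other 5 words. Of all summits, 0.783% held the E-box CACGTG, 2.77% held the E-box of basic helix-loop-helix factors, CAGCTG, and 0.783% held the DNA replication-related element TATCGATA. The Zelda core CAGGTA was in 1.91% and the core promoter word GGTCACAC in 0.470%. No match says only that these letters are not in these windows.

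A list of 56 other genes was drawn up for Wnt signalling, its planar polarity branch and its targets, with earlier results of these data known. Of the 56, 32 had a conservative summit in their gene body or 5 kb on either side, against 38.8% of all protein-coding genes. An own promoter summit was found at 4, against 10.2%. The median stretch of the 56 was 18.2 kb and their density 4.46 summits per 100 kb. Among the other Wnt ligands 2 of 6 had a summit, at Wnt5 (signal 291.3, 1940 bp upstream and inside Ggt-1) and Wnt6 (119.3, 347 bp upstream), and none had one at its own promoter. The secretion and extracellular genes had 3 of 6, the receptors 5 of 7, the destruction complex and kinases 6 of 11, the nuclear factors 10 of 14, the planar polarity genes 2 of 4 and the targets 4 of 8. Some of these genes count through a neighbour alone. The only summits of fz3 and otk2 lay at the promoters of RpL22 and of Mppe and pds5, and that of fz4 inside CG4615. Those of CkIIbeta, mts, Ssdp and dgo lay at the promoters of Karl, Rack1, MED17 and CG12325. The 56 genes were not recounted without such summits. The Frizzled paralogue fz2 resembled fz in having 7 summits in a long stretch, of 104.399 kb, with a highest signal of 111.6 in its first intron.

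The 4 with an own promoter summit were gro, Dll, Apc and Apc2. Apc had none in the list of replicate 1, and Apc2 had none in that of replicate 2. The gene of the co-repressor Groucho, gro, had 3 own promoter summits, the strongest at 507.2, 130 bp upstream of a TSS, with 259.2 in replicate 1 and 241.6 in replicate 2. The larger list and that of replicate 2 each held 2 such gro summits, and that of replicate 1 held 1. Dll, a homeobox target of Wingless in limb primordia, had 394.4, 102 bp upstream, with 114.6 and 281.2. The destruction complex scaffolds Apc and Apc2 had their strongest summits at neighbours instead, at WASp (149.1) and at TBC1d7 and Myo95E (433.4). Of the rest, the highest signal was 837.7 at osa, a Brahma complex subunit gene, in intron 4 and also inside lncRNA:CR46035. Next came 707.7 at Sox14, 263 bp upstream, and 619.0 at the promoters of Mppe and pds5 beside otk2. The CBP gene, nej, had 452.5, 711 bp upstream. The replicates gave 430.4 and 419.5 at osa, 431.6 and 278.0 at Sox14, 363.1 and 256.1 near otk2, and 142.6 and 308.4 at nej. The sites at osa, Sox14, otk2 and nej were each in both replicates' own lists.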

How the data were processed

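Peak lists on dm6 were analysed, per the labels, from stc-eGFP embryos in 2 biological replicates. Neither an aligner nor a caller is named by the sources used here. Each peak's signal was deposited as the authors' caller gave it, with its scaling not stated. The score, which was not used, and the −log10 value of the IDR, from which the IDR was computed, were also deposited by the authors. The highest IDR in the conservative list was 0.00999. The series' ranked list used here held every conservative peak, and another ranked list of the series was not read.

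Genes came from Ensembl BDGP6.54, release 115, without start sites of transposable elements, and sequence from the RefSeq Release 6 assembly (Python 3.11.15, pandas 2.3.3, numpy 2.4.6). Both use dm6 coordinates. Summits were assigned to promoters first, then exons, first introns and later introns. Placement was checked on simulated peaks.

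The members, the list of 56 genes and the motifs were chosen with earlier results of these data known. The A and T content was added after seeing the data. Named genes are the members, genes whose TSS lies within 250 bp of a summit in a member window, the other pathway genes with an own promoter summit, 4 others of highest signal, and promoter peaks adjacent in rank. Others, such as fz2, Wnt5, Wnt6, Sulf1, CG1737, Mgat2 and Ggt-1, were named after their values were seen. No test was run. Alternatives were the other lists, the window, the distance to a TSS, the farthest 5′ TSS alone, the overlap, merged peaks, a stricter IDR and, added after seeing the data, neighbours' summits left out and A and T stretches of 25 or 100 bp on either side or flanks at 500 bp.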

Additional observations from a re-analysis of the deposited data

How the results depend on the processing

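Of 47 alternatives over 8 results, 39 stayed within 1.5 times a reported count or within 1 SD between the replicates' values, and 8 moved farther. That SD is wide for the A and T difference, which went from 12.4 points to 7.43 and 17.3 with the list of replicate 2 or replicate 1 alone and to 7.92 with flanks at 500 bp. Gene bodies alone held 15 of the 22 summits, and the other pathway genes with a summit numbered 23 at 2 kb and 44 at 10 kb in place of 32. With each replicate's list alone the number of summits ranged from 13 to 22, the density from 3.08 to 5.21 per 100 kb and the intron share from 45.5% to 53.8%. An IDR of 0.001 or less kept 9 of the 22 summits, still at 6 genes. With overlapping peaks merged there were 21 summits in place of 22. With promoters drawn at 100 bp from a TSS no gene had an own promoter summit (0 in place of 4) and the intron share was 68.2%, because all 4 summits lie 133 to 189 bp from their TSS. With the farthest 5′ TSS alone there were 2, at nkd and fz. Shares of all protein-coding genes are given for the 4 lists alone, not for other windows or TSS distances. Counts under those settings were therefore not set against all genes. In the larger list the intron share was 51.9%. The number of genes with a summit ranged from 5 to 8, and was 5, with 19 summits, when those at or inside neighbouring genes were left out, a choice made after seeing the data. Without a control and with unknown depth, background peaks cannot be told apart from stc peaks, and a window without a summit does not show that stc is absent. No paired analysis was possible because there was 1 group.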
